A study of Mus musculus with 24 samples.

Results

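Arc, Ier2, Ier5 and Ptgs2, which are effector genes switched on by neuronal activity, and the neuronal pentraxins Nptx1, Nptx2 and Nptxr were followed in the mouse cortex after stroke. They were taken by symbol, and all 7 were present in each of 4 deposited tables that list 14769 genes in all. The cortex came from male mice aged 3 to 4 months after tMCAo (transient middle cerebral artery occlusion), in which a filament blocked the artery for 1 h and blood was let back for 1 day. WT animals and ciRS-7 KO animals, which lack the circular RNA also called Cdr1as, gave 6 libraries for each mark the labels put on the tissue, CL and PI, which are not spelled out there and are used as given. All 24 libraries, those of WT animals included, carry the strain C57BL/6N-Cdr1asem1Nikr, all animals had the surgery, and each animal gave both a CL and a PI sample, as the titles show. The groups are therefore CL and PI of WT and CL and PI of KO, 6 libraries each, and animals that had no surgery were not analysed here.

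Neuronal activity raises calcium in the cell, which switches on immediate early genes within minutes through factors already present, such as CREB. Some of these genes encode transcription factors, and others, called effectors, encode proteins that act directly on synapses, signalling or protein folding. Of the neuronal pentraxins, Nptx2 is among the proteins at the end of this path. The pentraxins gather AMPA-type glutamate receptors at excitatory synapses, in the cortex above all on parvalbumin interneurons. ciRS-7 is abundant in neurons and binds the microRNA miR-7, and mice without it have been described with raised immediate early genes in the brain.

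The values are log2 CPM, the logarithm of read counts scaled to a common library total, and each table was scaled on its own, so that levels are compared within a table. The worth of 1 read gave a depth of 5.27 to 10.5 M reads per library. In each gene and group of 6 the lowest pair of values was tied, and so was the highest pair, because they had been replaced by the quartiles of the group. The lowest and highest values given below are those quartiles, and the second lowest to the second highest value could be recovered. Counts of animals below are of these deposited values, in which a tied value is not the animal's own. Groups are said to overlap, or not, on these 4 recovered values each. Errors are the SE of a difference of trimmed means over those values, with 6 libraries a group, and calls were made where the adjusted p lay under 0.05. Cdr1as, the targeted RNA, had a trimmed mean of 3634 CPM in CL WT and 2741 CPM in PI WT, and among the recovered values at most 0.148 CPM (CL KO) and 0.169 CPM (PI KO), under the 3 reads taken as the limit of detection (0.285 to 0.569 CPM). The tissue held markers of cortical neurons. The summed level of the 9 excitatory markers was 2462 to 2669 CPM in CL WT and 1969 to 2114 in PI WT. In KO it was 2537 to 2696 CPM in CL and 1956 to 2071 in PI. In bulk tissue, fewer cells of a type and less RNA per cell cannot be told apart.

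Per kilobase of exon, the pentraxins Nptx1 and Nptxr were the most abundant of the 7 and Ier2 the least. In CL WT, Nptx1 stood at 47.9 CPM per kb and Nptxr at 44.0, with recovered ranges that overlap (45.7 to 49.4 and 39.4 to 50.5). Arc followed at 19.6 CPM per kb, Ier5 at 12.2, Ptgs2 at 8.30, Nptx2 at 4.95 and Ier2 at 1.25, and the recovered ranges of these neighbours did not overlap. In the table of both PI groups, PI WT had Nptx1 (56.6 CPM per kb) and Nptxr (43.6) at the top, with ranges that did not overlap. Ier5, at 15.3, lay above Arc (12.4), Ptgs2 (11.9) and Nptx2 (11.5), and the latter 3 overlapped. In PI KO the order was Nptx1 (51.6), Nptxr (39.9), Arc (21.5), Ptgs2 (15.6), Ier5 (14.7), Nptx2 (13.6) and Ier2 (1.74), where the ranges of Arc, Ptgs2, Ier5 and Nptx2 overlapped each other. Ier2 rests on the fewest reads, about 13.5 in a CL WT library of median depth, whereas Nptx2 rests on about 88.6 and each of the other members on more than that.

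**Figure D1:**
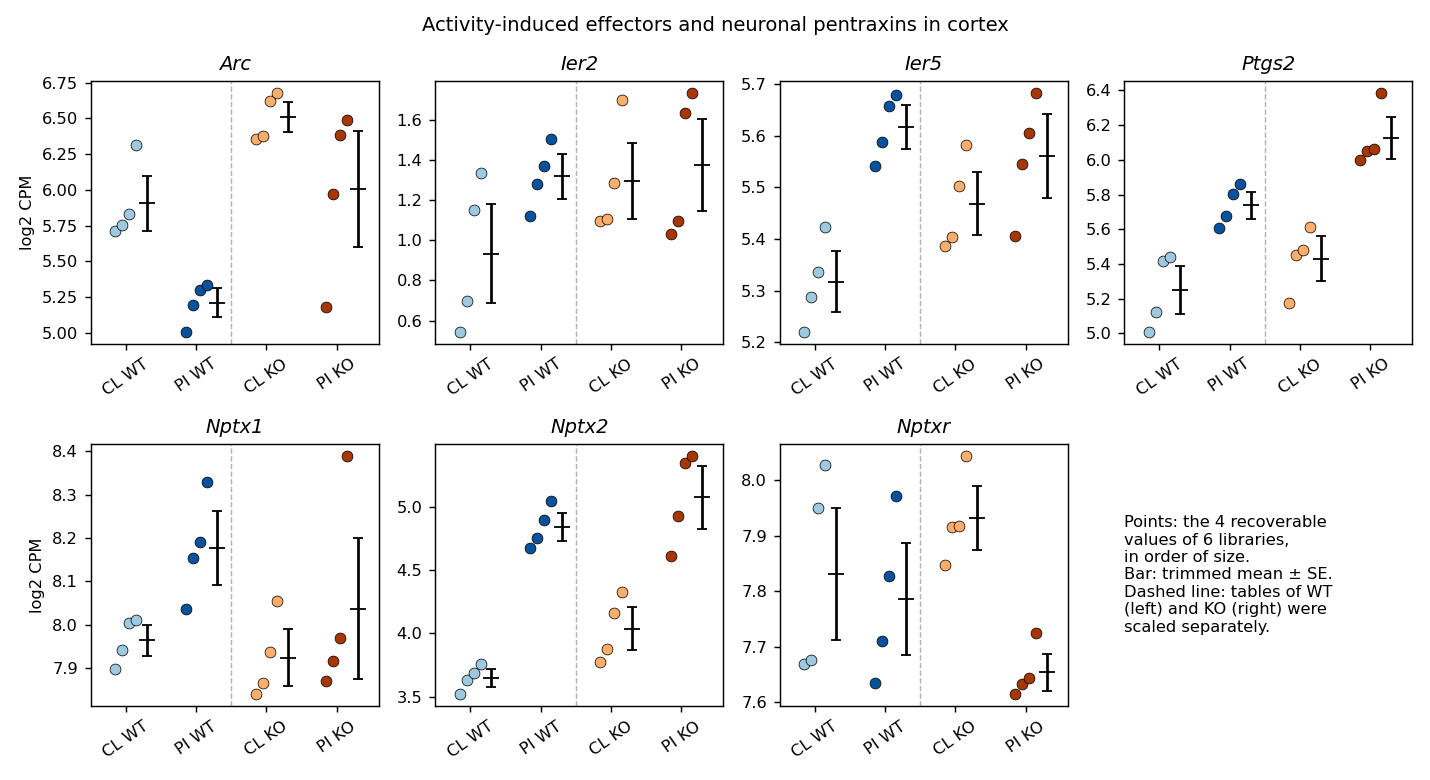
Log2 CPM of the 7 genes (1 panel each) in CL and PI of WT (left) and of KO (right). Points are the 4 recoverable values of 6 libraries, sorted by size, the bar is the trimmed mean with its SE (from the values of that group alone, not moderated over genes), and the dashed line parts the 2 separately scaled tables. Nptx2 and Ptgs2 lie higher in PI than in CL in both genotypes with no overlap, and Arc in PI KO has the widest spread.

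Between PI and CL in WT animals, 4 of the 7 genes were called, where 10.6% of all 14489 genes tested were. Nptx2, Ptgs2 and Ier5 rose in PI, as 5.20% of all genes did, and Arc fell, as 5.40% did. Ier2, Nptx1 and Nptxr did not pass. In KO animals 3 of the 7 were called, where 10.0% of all genes were. Nptx2 and Ptgs2 rose there as well (5.11% of all genes rose), and Nptxr fell (4.94% fell). The calls lean on a prior variance that follows the expression level: with a constant prior, Nptx2 in WT (adjusted p = 0.00259) and Ptgs2 in KO (adjusted p = 0.0471) passed, and the other 5 had adjusted p from 0.0621 to 0.0856.

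Arc encodes a protein of the postsynaptic side that speeds the removal of AMPA receptors, and its mRNA travels into dendrites. The gene lies on chromosome 15 from 74669083 to 74672570 on the minus strand (GRCm38, GENCODE M21, here and for the other genes). In CL WT its deposited log2 CPM ran from 5.73 to 6.20 with a median of 5.79, and in PI WT from 5.06 to 5.33 with a median of 5.25. All recovered PI WT values lay under all recovered CL WT values. Arc fell by 0.69 log2 units (SE 0.16, adjusted p = 0.0134), to 0.618 of its CL level, and was lower in PI than in CL in 6 of 6 WT animals. In KO animals the log2 CPM ran from 6.36 to 6.66 in CL (median 6.50) and from 5.38 to 6.46 in PI (median 6.18). The groups overlapped, and the PI KO libraries were spread widely, with animals KO1 and KO6 the lowest pair at 5.38. The difference was -0.50 (SE 0.29, adjusted p = 0.315), with PI under CL in all KO animals except 1. Limma on the deposited values, whose spread is understated, called it both without a block (adjusted p = 0.0354) and with the animal as a block (adjusted p = 0.0242). Leaving out each of the 12 KO libraries in turn, the fit without a block called it in 6 of 12 cases.

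Ier5 encodes a nuclear protein that brings the phosphatase PP2A to the heat shock factor HSF1, and Ier2 encodes a related protein. Ier5, a gene of 1 exon on chromosome 1 (155096361 to 155099636, minus strand), ran from 5.24 to 5.40 log2 CPM in CL WT (median 5.31) and from 5.55 to 5.67 in PI WT (median 5.62). The groups did not overlap, and PI was the higher library in 6 of 6 WT animals. It rose by 0.30 (SE 0.08, adjusted p = 0.0231), or 1.23-fold. In KO animals it ran from 5.39 to 5.56 in CL (median 5.45) and from 5.44 to 5.66 in PI (median 5.57). These groups overlapped, PI was higher in 4 of 6 animals, and the difference was 0.09 (SE 0.09, adjusted p = 0.600). Ier2, also of 1 exon, lies on chromosome 8 from 84661331 to 84662852 on the minus strand. Its log2 CPM ran from 0.58 to 1.29 in CL WT (median 0.93) and from 1.16 to 1.47 in PI WT (median 1.32). In KO animals it ran from 1.10 to 1.60 in CL (median 1.19) and from 1.05 to 1.71 in PI (median 1.37). The groups overlapped in both genotypes, and the differences of 0.39 (SE 0.28, adjusted p = 0.457) in WT and 0.08 (SE 0.29, adjusted p = 0.902) in KO had intervals reaching from -0.22 to 0.99 and from -0.55 to 0.70.

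Ptgs2 encodes cyclooxygenase-2, the inducible enzyme that turns arachidonic acid into the precursor of the prostaglandins. It lies on chromosome 1 from 150100031 to 150108227 on the plus strand. Among the 7 genes it alone has, in its 3′ UTR, a match to the seed of miR-7, the microRNA that ciRS-7 binds, and so both sequences are shown. The capitals mark bases 2 to 8 of the microRNA, which are the same in both mouse forms, and the matching bases GTCTTCC of the target, searched on the transcript strand:
miR-7a-5p: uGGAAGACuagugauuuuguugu
miR-7b-5p: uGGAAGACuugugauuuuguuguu
Ptgs2 3′ UTR: tcacaatattgatatGTCTTCCagcccatt
The match begins at base 1114 of a 3′ UTR of 2445 bases. Such a match occurred in 12.9% of 12222 genes with a 3′ UTR, and it says nothing of whether the site is used. The mature sequences are those of RefSeq, and the 3′ UTR was read from GENCODE M21.

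The start of Ptgs2 also holds letters that bear on activity-induced transcription. Below is the stretch chr1:150100032-150100061 (plus strand, RefSeq on GRCm38.p6), from 1 base past the start site, where the capitals mark CGTCA, which reads TGACG on the minus strand and is the core of the cyclic AMP response element that CREB binds, followed without a gap by the rest of an E-box CACGTG, with which it overlaps.
Ptgs2 start: gagtcaccactaCGTCACGTGgagtccgct
Within windows of 300 bases at the start site, searched on both strands, TGACG occurred in 30.4% of 13216 genes and CACGTG in 9.80%, and the whole element TGACGTCA in 3.00%. The Ptgs2 window held the first and the second of these and not the whole element. The window of Ier5 held none of them, nor the AP-1 letters TGANTCA (4.80% of windows) or the heat shock letters GAANNTTC (5.67%). Windows were given for these 2 members of the 7.

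Ptgs2 rose in PI in both genotypes. In WT its log2 CPM ran from 5.04 to 5.43 in CL (median 5.27) and from 5.63 to 5.85 in PI (median 5.74). In KO it ran from 5.24 to 5.58 in CL (median 5.47) and from 6.01 to 6.30 in PI (median 6.06). The groups did not overlap in either genotype, and PI was the higher library in 6 of 6 WT and 6 of 6 KO animals. The rise was 0.49 (SE 0.12, adjusted p = 0.0220) in WT, 1.40-fold, and 0.69 (SE 0.13, adjusted p = 0.00647) in KO, 1.62-fold.

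Nptx2, also known as Narp, is the pentraxin that activity induces, and it is secreted. It lies on chromosome 5 from 144545902 to 144557478 on the plus strand and showed the largest difference of the 7 between PI and CL. In WT its log2 CPM ran from 3.55 to 3.74 in CL (median 3.66) and from 4.69 to 5.004 in PI (median 4.82). In KO it ran from 3.80 to 4.29 in CL (median 4.02) and from 4.69 to 5.39 in PI (median 5.14). PI lay above CL with no overlap in both genotypes, and in 6 of 6 animals of each. The rise was 1.19 (SE 0.12, adjusted p = 6.80e-05), 2.28-fold, in WT and 1.04 (SE 0.22, adjusted p = 0.0106), 2.05-fold, in KO.

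Nptx1 is the secreted pentraxin that is present without induction, and Nptxr is anchored in the membrane and assembles with the other two. Nptx1 (chromosome 11 from 119538719 to 119547753, minus strand) ran from 7.91 to 8.01 log2 CPM in CL WT (median 7.97) and from 8.06 to 8.29 in PI WT (median 8.17). The recovered values did not overlap, with a gap of 0.025, and PI was higher in 6 of 6 animals. The difference of 0.21 (SE 0.08, unadjusted p = 0.0159, adjusted p = 0.102) did not pass. Limma on the deposited values, whose spread is understated, called it without a block (adjusted p = 0.000821) and with the animal as a block (adjusted p = 0.000305). In KO it ran from 7.85 to 8.02 in CL (median 7.90) and from 7.88 to 8.28 in PI (median 7.94). The groups overlapped, with a difference of 0.11 (SE 0.13, adjusted p = 0.649). PI was nonetheless the higher deposited value in 6 of 6 KO animals, by 0.016 to 0.26. Limma on the deposited values did not call this difference without the block (adjusted p = 0.228) and called it with the block (adjusted p = 0.0383).

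Nptxr lies on chromosome 15 from 79786351 to 79804766 on the minus strand and shares 890 exon bases with the gene Npcd on the same strand, so that its counts depend on how shared reads were assigned. The other 6 members overlap no annotated gene. In WT, Nptxr ran from 7.67 to 8.01 log2 CPM in CL (median 7.81) and from 7.65 to 7.94 in PI (median 7.77), and the groups overlapped, with a difference of -0.04 (SE 0.12, adjusted p = 0.868). In KO it ran from 7.86 to 8.01 in CL (median 7.92) and from 7.62 to 7.70 in PI (median 7.64). Here all recovered PI values lay under all recovered CL values, and PI was lower in 6 of 6 animals. In KO, therefore, Nptxr fell by 0.28 (SE 0.07, adjusted p = 0.0179). The recovered values of 5 of the 7 genes in WT and 3 of the 7 in KO did not overlap between PI and CL, where 26.3% and 26.8% of all genes did not.

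**Figure D2:**
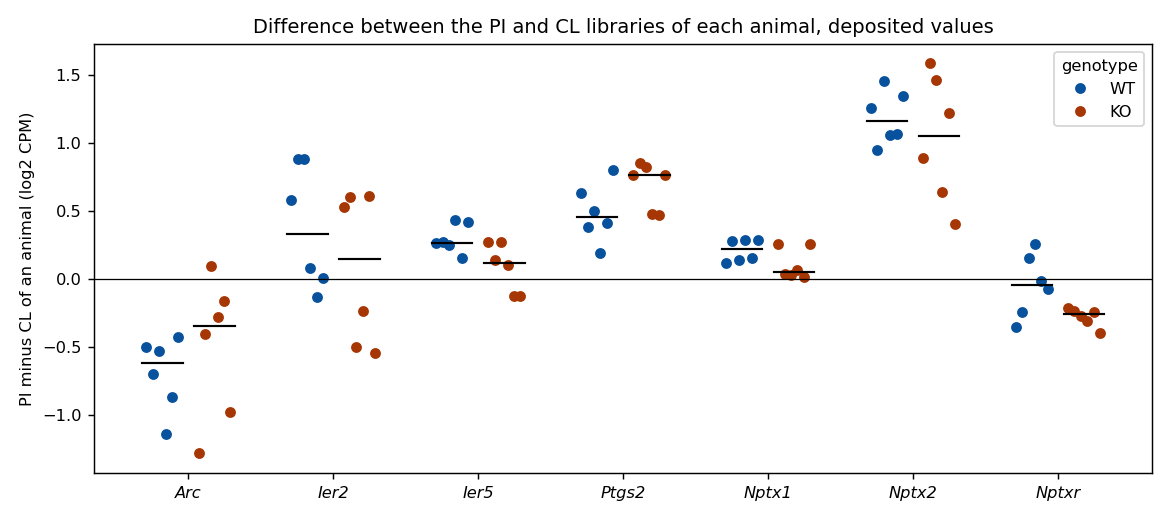
Difference between the PI and the CL library of each animal in deposited log2 CPM (vertical axis), for the 7 genes, with 6 WT and 6 KO animals as points and the median as a line. Nptx2, Ptgs2 and Nptx1 are above 0 in all 12 animals, Nptx1 in KO by as little as 0.016. Arc is below 0 in all except 1, and Nptxr is below 0 in all KO animals and on both sides of 0 in WT.

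Some calls of the trimmed-mean test were made in 1 genotype alone (Arc and Ier5 in WT, Nptxr in KO), so the difference between the genotypes was tested itself. None of the 7 interactions was called by the limma-based trimmed-mean test, and all had adjusted p = 0.992. None had an unadjusted p under 0.05, and 0% of 14211 genes were called (4.55% at an unadjusted p under 0.05). For Arc the PI to CL difference was 0.19 higher in KO than in WT, with a 95% interval from -0.59 to 0.97. Those of Ier5 and Nptxr were -0.21 (interval -0.46 to 0.05) and -0.23 (interval -0.53 to 0.07), for Ptgs2 0.21 (interval -0.21 to 0.62) and for Nptx2 -0.15 (interval -0.72 to 0.41). Nptx1 had -0.10 (interval -0.44 to 0.24) and Ier2 -0.31 (interval -1.15 to 0.54). Limma on the deposited values, whose spread is understated, called 1 of the 7, Ier5 (adjusted p = 0.0332), and 1940 genes in all. With the animal as a block in that fit, Ier5 was no longer called (adjusted p = 0.0682).

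Genotype was compared within CL and within PI, to ask whether the absence of ciRS-7 goes with other levels of these genes. None of the 7 was called in either comparison by the limma-based trimmed-mean test, where 0.0279% of 14323 genes were called in CL and 0.0208% of 14452 in PI. The called genes were Cdr1as, Cdr1 and Cdr1os of the targeted locus in both, and Lrrc17 in CL. At an unadjusted p under 0.05 stood 2 of the 7 in CL (Arc and Nptx2) and 2 in PI (Arc and Ptgs2), all higher in KO, where 5.73% and 5.75% of all genes reached it. Limma on the deposited values, whose spread is understated, called 3 of the 7 in CL (Arc, Nptx2 and Ier5) and 2 in PI (Arc and Ptgs2). Of all genes it called 2311 of 14323 in CL and 2388 of 14452 in PI.

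In CL, Arc ran from 5.69 to 6.16 log2 CPM in WT (median 5.76) and from 6.33 to 6.64 in KO (median 6.48). All recovered KO values lay above all recovered WT values, by a gap of 0.041. The difference was 0.61 (SE 0.16, unadjusted p = 0.00195, adjusted p = 0.564), 1.53-fold. Nptx2 ran in CL from 3.51 to 3.71 in WT (median 3.62) and from 3.77 to 4.26 in KO (median 3.99), with no overlap and a gap of 0.019. It differed by 0.39 (SE 0.15, unadjusted p = 0.0220, adjusted p = 0.824). The other 5 overlapped, with differences from -0.03 (Nptx1) to 0.36 (Ier2). Ier5 had 0.16 (SE 0.08, adjusted p = 0.878), Ptgs2 0.19 (SE 0.14, adjusted p = 0.917) and Nptxr 0.11 (SE 0.10, adjusted p = 0.949). Of all genes, 8.67% did not overlap in this comparison.

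In PI, Ptgs2 ran from 5.66 to 5.88 log2 CPM in WT (median 5.77) and from 6.05 to 6.34 in KO (median 6.09). KO lay above WT with no overlap, which held for 8.97% of all genes in either direction. The difference was 0.39 (SE 0.11, unadjusted p = 0.00457, adjusted p = 0.768), 1.31-fold. Arc ran in PI from 5.08 to 5.36 in WT (median 5.28) and from 5.41 to 6.50 in KO (median 6.21). The second lowest PI KO value, recovered as 5.21, lay within the range of PI WT. The difference was 0.80 (SE 0.30, unadjusted p = 0.0188, adjusted p = 0.854), and its interval from 0.16 to 1.44 was the widest of the 7 in that comparison. Nptx2 differed by 0.24 (interval -0.19 to 0.68), Ier2 by 0.06 (interval -0.52 to 0.64), Ier5 by -0.05 (interval -0.24 to 0.14), and Nptx1 and Nptxr by -0.13 each (intervals -0.43 to 0.16 and -0.32 to 0.06). The comparisons of genotype share their libraries with those of PI and CL, so the same library enters more than 1 of these differences.

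**Figure D3:**
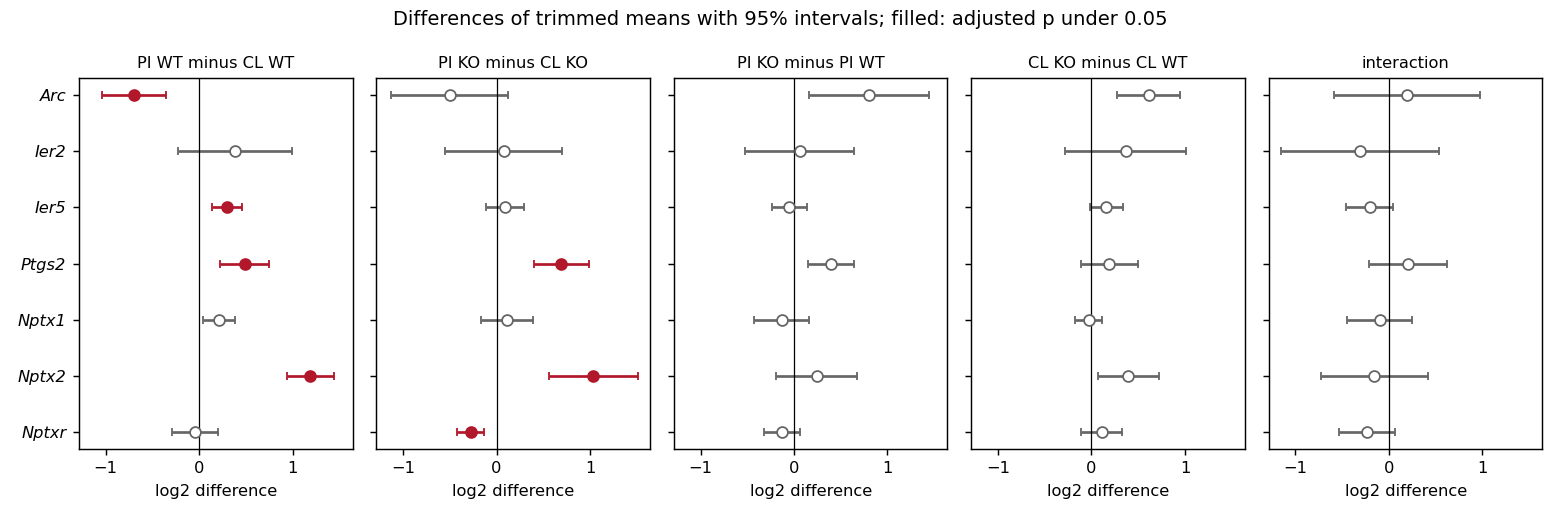
Log2 differences of the 7 genes (horizontal axis) with 95% intervals in the 4 comparisons and in the interaction (the PI to CL difference of KO less that of WT). Filled points passed an adjusted p under 0.05, which are 4 genes in PI WT minus CL WT, 3 in PI KO minus CL KO and 0 in the others.

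Within PI KO, animals KO1 and KO6 held the 2 lowest values of Arc (5.38), Nptx2 (4.69) and Ptgs2 (6.01) and the 2 highest of Nptx1 (8.28). The other 4 animals stood between 5.97 and 6.46 for Arc and between 7.88 and 7.97 for Nptx1. In PI WT as well, the animals with the highest Arc (WT1 and WT5, 5.33) were those with the lowest Nptx1 (8.06). In CL the 2 genes went together in some animals and apart in others. WT4 (Arc 6.20, Nptx1 8.01) and KO1 (6.66 and 8.02) were in the highest pair of both. WT5 (6.20 and 7.91) and KO4 (6.66 and 7.85) were in the highest pair of Arc and the lowest of Nptx1. No r was taken within a single group, and the wide spread of PI KO enters those below. As a description over the 24 libraries, with each gene centred on its group, Arc and Nptx1 had a Pearson r of -0.70, Arc and Nptx2 0.59, and Nptx1 and Nptx2 -0.63. Centred on the table, which keeps the difference between PI and CL, Ptgs2 and Nptx2 had 0.87 and Arc and Nptx1 -0.82. The pairs named so far were picked as the largest r in size under each centring. Centred on the table, Arc and Nptx2 had -0.56 and Nptx1 and Nptx2 0.39, so the sign of these pairs depends on the centring. These genes share their libraries and their scaling, and the tied values shape each r. Leaving out any 1 library, with limma on the deposited values, moved the Arc difference between PI KO and PI WT from 0.71 to 0.92 and that between PI KO and CL KO from -0.59 to -0.38. The quartiles had been taken over all 6 libraries, so a library left out still shaped the tied values that remained. These ranges may therefore understate the part of 1 library.

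Genes whose deposited values ran most like those of a member, by Pearson r over the 24 libraries with each gene centred on its table, were sought among 13360 genes. For Arc they were Exph5 (0.92), Hunk (0.91) and Dusp6 (0.91), of which Dusp6 is a phosphatase that activity induces and that acts on the kinase ERK. For Ptgs2 they were Cp (0.95), F13a1 (0.95) and P4hb (0.94), and for Nptx2 Serpinh1 (0.97), Ccl9 (0.96) and Clic4 (0.96). Cp, or ceruloplasmin, is also 1 of the 8 reactive astrocyte markers. Syn2 (0.89), Prkar1b (0.89) and Uchl1 (0.89) were most like Ier5, of which Syn2 encodes a synaptic vesicle protein. For Nptx1 they were Cpeb1 (0.94), Ikbkg (0.90) and Pxdn (0.90), for Nptxr Zmym3 (0.90), Celsr2 (0.90) and C2cd2l (0.87), and for Ier2 Edem1 (0.80), Hmgb2 (0.71) and Pxdc1 (0.71). With values centred on the group, which removes the difference between PI and CL, 2 of these 3 genes returned for Nptxr, 1 each for Nptx1 (Cpeb1, 0.92) and Ier2 (Edem1, 0.85), and 0 for Arc, Ier5, Ptgs2 and Nptx2. By Spearman rho with each gene centred on its table, 0 returned for Ptgs2, 1 for Nptx2 (Serpinh1) and 2 for each other member. Cp thus returned for Ptgs2 in neither case.

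The pathways around the members were described by lists, chosen with earlier results of these data known, as counts beside all genes and with no test of the list. Of all genes, 5.20% were called higher and 5.40% lower in PI WT against CL WT. In PI KO against CL KO these shares were 5.11% and 4.94%. Among 39 other activity-induced effectors, 5 rose and 5 fell in PI WT against CL WT (median 0.04, against 0.01 over all genes). Homer1, a scaffold of the postsynaptic side, fell by 0.62 (adjusted p = 1.68e-05), like Arc, whereas Gadd45b rose by 1.24 (adjusted p = 0.000367) and Cdkn1a, a cell cycle inhibitor, by 0.81 (adjusted p = 0.000893). In KO, 5 rose and 3 fell (median 0.08, against -0.0007 over all genes), among them Homer1, which fell by 0.60 (adjusted p = 0.00525), and Gadd45b, which rose by 0.99 (adjusted p = 0.00106). Of 19 immediate early transcription factors, 2 rose and 5 fell in PI WT (median -0.26), and 2 rose and 6 fell in PI KO (median -0.61). The smallest p in WT was that of Nr4a2, which fell by 1.56 (adjusted p = 3.35e-05), followed by Egr1, which fell by 1.08 (adjusted p = 0.000480), and Egr3, which fell by 0.67 (adjusted p = 0.00251). In KO it was that of Egr2, which fell by 1.995 (adjusted p = 0.00504), followed by Fosl2, which fell by 0.71 (adjusted p = 0.00626). Nr4a1 fell in both (by 0.85 with adjusted p = 0.00313 in WT, and by 1.14 with adjusted p = 0.00979 in KO) and Jun rose in both (0.43 with adjusted p = 0.00437, and 0.42 with adjusted p = 0.00907).

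Calcium and CREB signalling, upstream of the activity-induced members, counted 1 gene that rose and 5 that fell of 25 in PI WT, and 0 and 4 in PI KO (medians -0.07 and -0.14). Camk4, a kinase that activates CREB, fell by 0.91 (adjusted p = 6.75e-06) in WT and by 0.78 (adjusted p = 1.99e-05) in KO. Of 16 partners of the Arc protein, 0 rose and 4 fell in PI WT and 0 rose and 5 fell in PI KO (medians -0.09 and -0.10). Camk2a, the kinase CaMKII alpha, fell by 0.44 (adjusted p = 0.000783) and by 0.59 (adjusted p = 8.33e-05).

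Around Ptgs2, the prostaglandin list counted 4 genes that rose and 1 that fell of 16 in PI WT, and 3 and 0 of 15 in PI KO (medians 0.22 and 0.27). Pla2g4a, the phospholipase that frees arachidonic acid, rose by 0.80 (adjusted p = 0.00270) in WT and by 1.22 (adjusted p = 0.0368) in KO. Ptgs1, the constitutive cyclooxygenase, rose by 0.91 in WT (adjusted p = 0.00260), and Ptgds, a prostaglandin D synthase, fell by 0.67 (adjusted p = 0.0301). In KO neither was called, and the interaction of Ptgs1 was -0.61 (adjusted p = 0.992). Around the pentraxins, 4 genes rose and 3 fell of 14 in PI WT, and 4 rose and 4 fell of 13 in PI KO (medians -0.06 and -0.17). The AMPA receptor subunit Gria3 fell by 0.47 (adjusted p = 7.46e-05) and by 0.44 (adjusted p = 0.000814). C1qb, a complement chain and a marker of microglia, rose by 0.87 (adjusted p = 0.000150) and by 1.01 (adjusted p = 0.000201). Other microglia markers were mixed: of a separate list of 7, 3 were called higher and 1 lower in PI in each genotype. The lower was P2ry12, which fell by 0.82 (adjusted p = 0.0139) in WT and by 0.75 (adjusted p = 0.00303) in KO. Ptx3, a pentraxin of the immune system rather than of neurons, rose by 4.88 in WT (SE 0.55, adjusted p = 0.000192). Ptx3 was not among the 13 genes of the list measured in KO, so whether it rose there is not known. The largest difference of those 13 was 1.01, that of C1qb.

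Around Ier5 and Ier2, 6 of 15 genes of the HSF1 list rose and 0 fell in PI WT, and 5 rose and 0 fell in PI KO (medians 0.22 and 0.21). Hspb1, a small heat shock protein, rose by 2.57 (adjusted p = 0.000289) and by 2.55 (adjusted p = 0.00199), and the chaperone Hsph1 rose in both as well (adjusted p = 0.00291 and adjusted p = 0.0336). Hspa1a and Hspa1b are near-identical copies whose reads may be split between them, and both were called higher in both genotypes.

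Between genotypes, no gene of these 7 lists was called in CL or in PI by the limma-based trimmed-mean test. Of all genes in CL, 49.2% were higher in KO and 5.73% had an unadjusted p under 0.05. In CL, 16 of 19 immediate early transcription factors were higher in KO, 13 with an unadjusted p under 0.05 (median 0.49, against -0.002 over all genes), led by Egr1 (0.51, adjusted p = 0.197). Of the 39 other effectors in CL, 29 were higher in KO and 9 had an unadjusted p under 0.05 (median 0.12), the smallest p being that of Sik1 (0.48, adjusted p = 0.638). In PI the corresponding counts were 12 of 19 (median 0.23, 2 with an unadjusted p under 0.05) and 29 of 39 (median 0.08, 4 with an unadjusted p under 0.05). Of all genes in PI, 48.5% were higher in KO and 5.75% had an unadjusted p under 0.05. In each of the other 5 lists, 0 to 2 genes had an unadjusted p under 0.05 in either comparison.

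**Figure D4:**
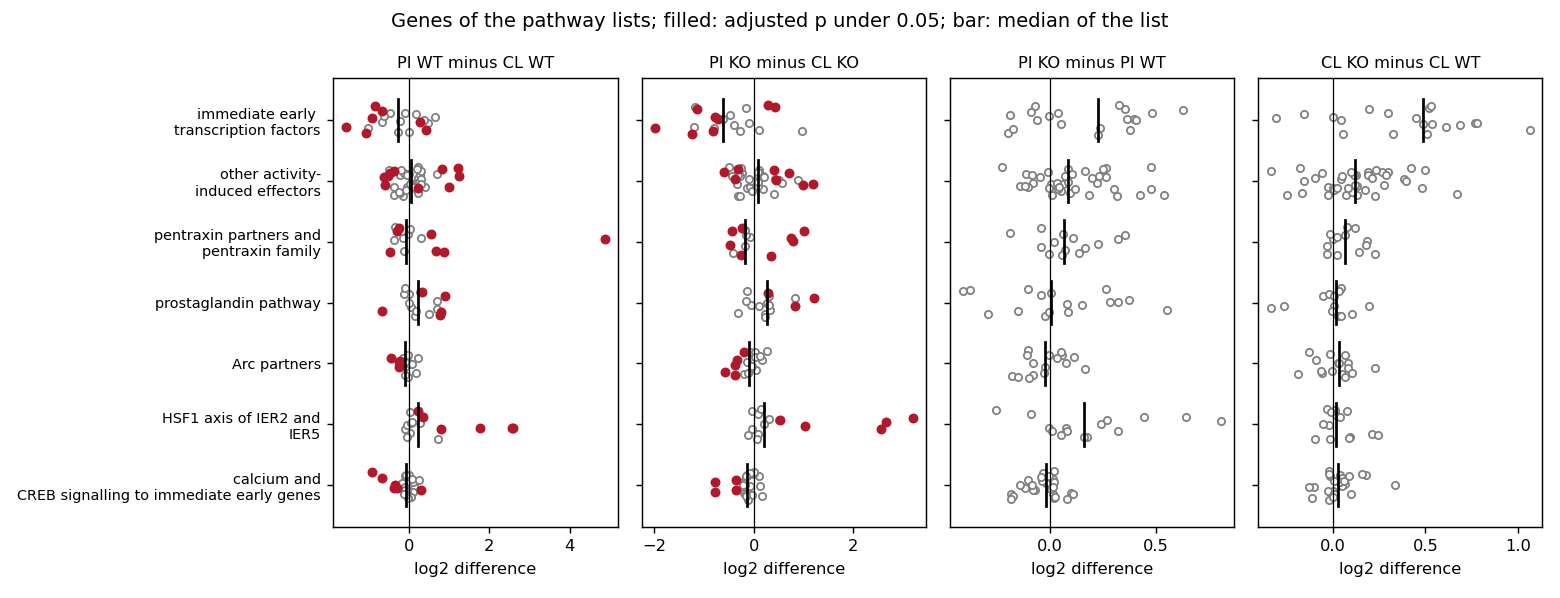
Log2 differences (horizontal axis, with its own range in each panel) of the genes of the 7 pathway lists in the 4 comparisons. Each point is a gene, filled where it passed an adjusted p under 0.05, and the bar is the median of the list, which is -0.26 for the immediate early transcription factors in PI WT minus CL WT and 0.49 for them in CL KO minus CL WT.

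Markers of other cell states moved with the difference between PI and CL. The 8 neuron markers summed to 8326 to 8841 CPM in CL WT and 7095 to 7795 in PI WT, with 0 called higher and 3 called lower. In KO they summed to 8124 to 8546 in CL and 6896 to 7597 in PI, also with 0 and 3. The excitatory neuron markers, whose sums were lower in PI without overlap, had 0 called higher and 3 called lower of 9 in each genotype. All 8 reactive astrocyte markers were called higher in PI in both genotypes, with sums of 137 to 164 CPM in CL WT against 477 to 551 in PI WT, and 137 to 151 in CL KO against 463 to 648 in PI KO. Inhibitory neuron markers summed to 636 to 688 CPM in CL WT and 648 to 732 in PI WT, with 0 called higher and 1 called lower of 8. In KO they summed to 656 to 701 CPM in CL and 674 to 732 in PI, with 1 called higher (Gad2) and 1 lower (Kcnc1). Endothelial markers summed to 86.0 to 125 CPM in CL WT and 86.1 to 126 in PI WT, with 0 of 6 called. In KO they summed to 99.0 to 113 CPM in CL and 96.3 to 105 in PI. There 0 were called higher and 1 lower, Slco1a4, which fell by 0.48 (adjusted p = 0.00234). Their part in the differences of Arc, Nptx2, Ptgs2, Ier5 and Nptxr was not tested.

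For the comparisons of genotype, neuron markers summed to 8133 to 8638 CPM in CL WT and 7980 to 8386 in CL KO, and excitatory markers to 2402 to 2608 and 2492 to 2648. Microglia markers summed to 156 to 167 CPM in CL WT and 166 to 179 in CL KO, and in PI to 172 to 194 in WT and 188 to 228 in KO. Of the 8 neutrophil and monocyte markers, S100a8 and S100a9 were listed in the table of PI KO and PI WT, with sums of 2.20 to 4.12 CPM in PI WT and 3.39 to 9.32 in PI KO, and the other 6, Ly6g and Mpo among them, were not listed there. No marker of these 4 lists was called between genotypes, and their part in the Arc, Ptgs2 and Nptx2 values was not tested.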

How the data were processed

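Ribosome-depleted total RNA of cortex was sequenced, per the labels' protocols. The deposited values are log2 CPM in 4 tables of 12 libraries, per the file headers, and the submitters' processing notes name the build mm10. The aligner, counting, strand use and scaling are not given in the sources used here. Every value column matched a sample title (0 unused columns).

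The deposited log2 values of each gene and group had been drawn in to the group's quartiles. The 4 inner values were solved from them. Of tied low values, 87.0% to 88.5% per group were whole reads (within 0.03 read) after this step and 10.4% to 12.9% before it. Depth was read from the step between low values, for which 82.8% to 91.3% of low values were whole. Each comparison used a two-sided test of trimmed means of the inner values, with the Winsorized sum of squares as error (6 degrees of freedom, or 12 for the interaction) and limma 3.58.1 (R 4.3.3) for an empirical Bayes step with a trend. Benjamini-Hochberg adjustment ran over all genes of a table. The test was tried on simulated data. Means and errors cover the spread between animals.

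The members and lists were chosen with earlier results of these data known. By rule, all 7 members were named, as were the 3 genes most like each member. List genes came from the up to 5 called genes of smallest p in each list and comparison, or with none called the gene of smallest p. Those in the text are examples, picked with their values seen. Of 15 marker lists, those of neurons, excitatory and inhibitory neurons, reactive astrocytes, microglia, neutrophils and monocytes, and endothelium are quoted. Titles name the animal of each CL and PI pair, so numbers pair them by animal, and the deviations of such pairs had r from -0.006 to 0.21 in WT and from -0.012 to 0.19 in KO. No label gives a batch. Other settings tried were the prior variance, a robust empirical Bayes step, a filter, the pseudocount, scaling, limma on deposited values, a replicate block and leaving out each library. The interaction was also computed from the genotype differences within PI and within CL.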

Additional observations from a re-analysis of the deposited data

How the results depend on the processing

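The trimmed-mean test was run with a filter at 0 log2 CPM, a pseudocount of 1 CPM, 2 other scalings, a constant prior variance and a robust empirical Bayes step. The interaction was also computed from the genotype differences within PI and within CL. These settings gave the same direction and call in 212 values and lost 5 calls, all 5 under the constant prior. There 1 member was called in WT and 1 in KO between PI and CL, and 1015 and 739 of all genes. The scalings moved the differences by at most 0.035 on the log2 scale.

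Limma on the deposited values, whose spread is understated, called 6459 genes (PI WT against CL WT), 6666 (PI KO against CL KO), 2388 (PI KO against PI WT), 2311 (CL KO against CL WT) and 1940 (interaction), with 6, 4, 2, 3 and 1 members. With a replicate block by animal or number in that fit, the counts were 6614, 6759, 1800, 1868 and 2216 genes, with 5, 5, 2, 4 and 0 members. Between PI and CL, the block within that fit added Nptx1 in KO (adjusted p = 0.228 without it, 0.0383 with it) and lost Ier2 in WT (0.0485 and 0.0803), and it changed no other member call there. In the interaction it lost Ier5 (0.0332 and 0.0682). Against the trimmed-mean test, both fits on deposited values added Nptx1 in WT and Arc in KO. The blocked fit could be made on the deposited values only, since the lowest and highest library of a group were not recovered, and numbers do not pair WT with KO animals.

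Leaving out each library in turn, in the same fit, gave 5 to 6, 3 to 4, 2 to 3, 2 to 3 and 0 to 2 members called in the order above, and 5969 to 6216, 6174 to 6470, 1632 to 2337, 1776 to 2067 and 1397 to 2021 genes. The Ier2 difference between PI KO and PI WT ran from -0.0081 (without PI KO replicate 2 or 5) to 0.12 there. Depth limits Ier2 most, at about 13.5 to 18.3 reads a library.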
